A study of Cucumis sativus with 6 samples.

Results

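The 8 genes described here were well expressed in pollinated cucumber ovaries, and their mean transcript level was between 1.81 and 2.64 times lower in *Csalc* mutants than in wild type (WT). They were chosen from a list for that difference, as genes that reached a WT mean of 100 normalized counts and had a mean about 1.8 to 2.7 times lower in *Csalc*. All 8 were found in the deposited table, which holds 23955 genes. The list does not exhaust its own description: 34 genes of the table met the same limits (0.227% of those expressed at this level), and 26 of them were not listed. The 8 also stand in the study's list of differentially expressed genes, from which their annotations are taken. Because the genes were chosen on these libraries, the size and direction of the difference are given below as a description, without a test.

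RNA was sequenced from WT ovaries of cucumber (*Cucumis sativus* inbred line XTMC) and from *Csalc*-/- ovaries, with 3 biological replicates each, all collected with the stigma at 32 h after pollination. CsALC is a bHLH transcription factor, and the *Csalc* plants carry frameshift mutations made with CRISPR-Cas9 in its first exon. The sources do not say whether the 3 *Csalc* libraries came from a single mutant line or from several, and the pollen donor of these ovaries is not given in them. The paper shows the upper part of an ovary as a representative sample. A pollinated ovary taken with its stigma contains stigma, pericarp, placenta, transmitting tract, ovules and growing pollen tubes together. A lower level in the bulk tissue therefore cannot tell fewer cells of a type from less RNA per cell. The guide that made the mutants defines the groups compared here and is shown for that reason. In the oligonucleotide below, the capitals mark the 19 bases that the annealed pair of cloning oligonucleotides share, and the lower-case letters are the cloning overhang.
CsALC guide: attgAACAGAGGTGGAATCGGGC

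Fertilization in cucumber depends on pollen tubes that grow through the transmitting tract of the ovary and turn out of it towards the ovules. The 8 genes belong to several branches of plant metabolism and growth. Adenosine phosphosulfate reductases carry out a reductive step of sulfate assimilation, which supplies cysteine and glutathione. ACC oxidases make ethylene, and pectinesterases remove methyl groups from the pectin of the cell wall. Thaumatin-like proteins are mostly secreted and include pathogenesis-related proteins. Cyclins regulate cyclin-dependent kinases, the MS5 family is named after an *Arabidopsis* gene needed for male meiosis, and HAT dimerization domains are known from hAT transposases and proteins derived from them.

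The deposited table gives 1 mean normalized count per gene and group. A mean adds up whole reads from 3 libraries after scaling for depth, and reads per library were worked back from its printed digits. The depth scaling (size factor) was 1.07 for each mutant library, and the WT libraries had 1.06, 1.01 and 0.782. The letters a, b and c order the libraries of a group by falling size factor and are no replicate numbers, which remain unknown. The WT means of 7 of the 8 genes and the *Csalc* means of 4 of the 8 allowed just 1 set of reads. Where 2 sets were possible both are given, for Csa6G513670 only a range, and the true set is not known. Over 18593 genes whose overall mean reached 10, the median log2 ratio of *Csalc* to WT was -0.01, so the 2 columns were on nearly the same scale.

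*CsALC* itself (Csa2G356640) averaged 395 normalized counts in WT ovaries and 238 in the mutant, and its log2 ratio of -0.73 lies outside the range of the 8 genes. Its transcript level is no measure of the knockout, because the mutations change the reading frame. *CsSPT* (Csa6G491000), its paralog and a transmitting tract gene, had 242 in *Csalc* and 222 in WT. Pollen and pollen tubes were represented by 2 peptide genes, which the transmitting tract also expresses. *CsRALF4* (Csa6G199790) was near 0 in both groups, with 7, 3 and 12 reads in WT ovaries and 0, 3 and 0 in mutant ovaries. *CsRALF19* (Csa6G484570) had WT values of 357, 803 and 664 normalized counts, against 58.7, 102 and 5.62 for the mutant. The means of both genes were thus lower in *Csalc*, that of *CsRALF4* on very few reads. By qPCR, the paper also reports lower levels of both in unpollinated *Csalc* ovaries. A part of pollen tube RNA in the values below was not tested.

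In all, 14991 genes reached a WT mean of 100 and had reads in *Csalc*; they are called well expressed here. Of these, 43 genes, or 0.287%, were lower in *Csalc* by at least 1.8-fold. The count of 8 of 8 listed genes is fixed by their choice, and nothing is read from it. In the other direction, 20 genes were higher in *Csalc* by at least 1.8-fold. The median log2 ratio was -1.14 over the 8 genes and -0.02 over all well expressed genes. Ranked by the ratio of the means, the 8 genes took places from 10 to 43 in this set, and 9 genes differed by more than 2.7-fold, with *CsRALF19* in place 1 at 11.0-fold. In the plot of all genes, the 8 lie in the band that their choice set, together with 26 genes that were not listed.

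**Figure D1:**
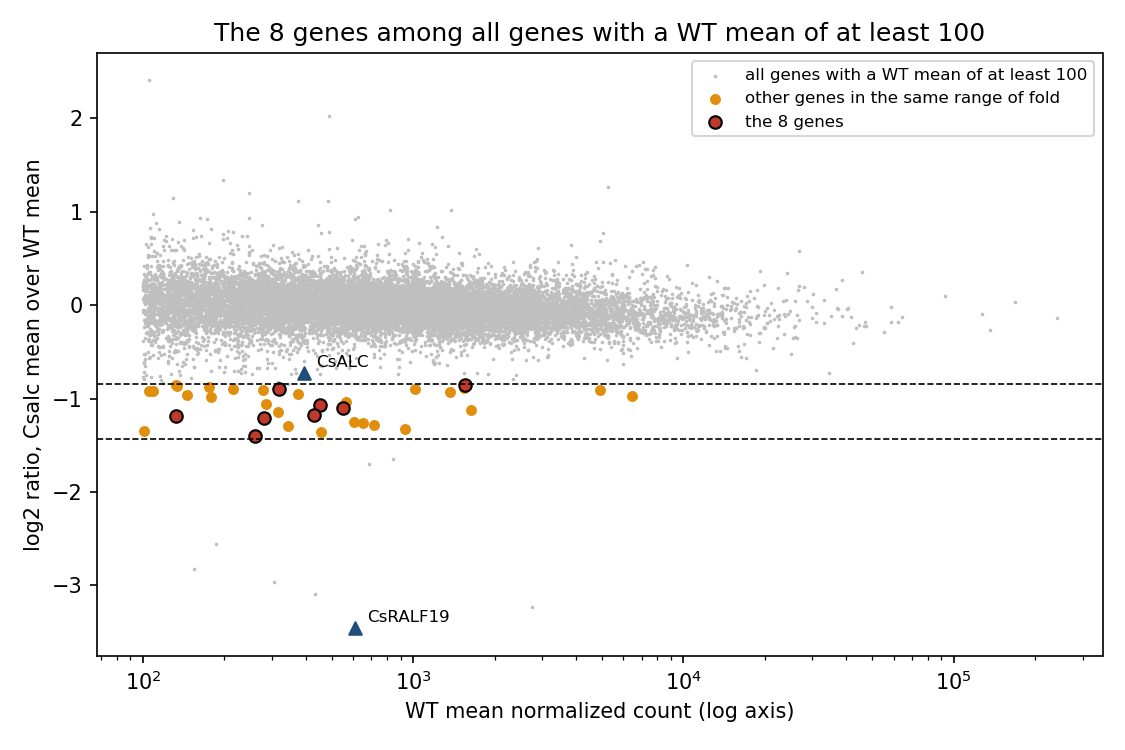
Log2 ratio of the group means (Csalc over WT) against the WT mean normalized count (log axis), 1 point per well expressed gene (WT mean of 100 or more). The 8 genes (red) and 26 other genes (orange) lie between the dashed lines at 1.8-fold and 2.7-fold; CsALC lies above that band and CsRALF19 far below it.

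A pair of the genes, Csa1G062380 and Csa6G513670, are both annotated as phosphoadenosine phosphosulfate reductases with an adenylylsulfate reductase domain, the enzyme type that commits sulfate to cysteine synthesis. Csa1G062380 had WT values of 443, 385 and 532 normalized counts for libraries a, b and c, and *Csalc* values of 248, 142 and 257. Library b was the lowest in both groups, a coincidence of letters only, and the lowest WT library was 1.4996 times the highest *Csalc* library. The mean was 453 ± 74.1 (SD, n = 3) in WT and 215 ± 64.0 (SD, n = 3) in *Csalc*, 2.10-fold lower. Its *Csalc* value rests much on library b: without it, the difference was 1.797-fold, below the limit that defines the list. Of the 4 listed genes with single combinations in both groups, it had the widest spread in *Csalc*, at 29.7% of the mean, against 6.58% expected from counting reads alone. For Csa6G513670 the authors' mean was 1554 in WT ovaries and 859 in the mutant, which is a log2 ratio of -0.86. Its *Csalc* mean allowed 3 combinations of reads, in all of which the 3 libraries lay between 717 and 1120 normalized counts, below the WT mean. Its WT mean allowed 40 combinations, so neither single WT libraries nor their spread can be given, and whether the groups overlap is not known. Its difference was the smallest of the 34 genes in the range. How the authors counted read pairs that match both reductase genes is not given in the sources used here.

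Csa4G091870 is annotated as a putative ACC oxidase, the enzyme of the last step of ethylene synthesis. Its WT libraries held 523, 570 and 562 normalized counts, the second most even WT values of the list with an SD of 4.49% of the mean, about the 4.41% that counting gives. In *Csalc* the mean was 258, and the libraries held either 303, 269 and 201 or 286, 106 and 380. Under either combination the highest *Csalc* library stayed under the lowest WT library. The difference was 2.14-fold, a log2 ratio of -1.10. The table pairs no annotation with its genes, so other genes of ethylene synthesis or of sulfate assimilation could not be counted beside the members.

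Another pair encode proteins of the cell wall and the extracellular space. Csa5G612810, annotated as a pectinesterase with a pectinesterase inhibitor domain, had 191, 284 and 304 normalized counts in WT and 86.6, 127 and 81.5 in *Csalc*. It was the gene with the largest ratio in the list, 2.64-fold with a log2 ratio of -1.40, and also the one with the widest spread in WT. The WT mean was 260 ± 60.6 (SD, n = 3) and the *Csalc* mean 98.3 ± 24.8 (SD, n = 3). WT library a lay well under the other WT libraries but still at 1.505 times the highest *Csalc* library, which was b. With 1 library left out in turn, the difference ranged from 2.42-fold without WT library c to 3.09-fold without *Csalc* library b.

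Csa2G361370, a thaumatin-like protein gene, had 395, 406 and 487 normalized counts in the WT libraries. Its *Csalc* mean of 190 allowed 2 combinations, 157, 238 and 175 or 141, 74.6 and 355. The groups did not overlap under either of them. The log2 ratio was -1.18, or 2.26-fold. The lowest WT library was 1.66 times the highest *Csalc* library under the more even combination, and 1.11 times under the other, so the gap between the groups is loosely known.

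Csa5G256690 encodes a cyclin-J18-like protein, and of the list it had the most even values. The WT libraries held 132, 136 and 128 normalized counts and the *Csalc* libraries 59.6, 57.8 and 56.2. The SD was 3.15% of the mean in WT and 2.93% in *Csalc*, under the 8.99% and 12.7% that counting 100 to 140 reads and 60 to 64 reads per library would give. Of all genes with a WT mean of 100 to 700, 6.60% had a smaller relative spread in WT. The lowest WT library was 2.15 times the highest *Csalc* library, the widest gap of the 4 listed genes with single combinations in both groups. The difference was 2.28-fold and ranged from 2.25 to 2.32-fold with 1 library left out in turn.

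Csa3G516480, whose product is annotated with a HAT dimerization domain, had 293, 241 and 307 normalized counts in WT and 115, 130 and 119 in *Csalc*. The *Csalc* libraries were close together, with an SD of 6.38% of the mean, and the WT libraries were less so, at 12.4%. The log2 ratio was -1.21, and it lay between -1.31 and -1.14 with 1 library left out in turn. The lowest WT library was 1.86 times the highest *Csalc* library.

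Csa3G132580, of the MS5 family, is the other gene of the list with a difference under 2-fold. It had 347, 308 and 306 normalized counts in WT, and its *Csalc* mean of 172 allowed either 175, 144 and 198 or 192, 307 and 17.8. Under the first combination the groups were apart, the lowest WT library being 1.55 times the highest *Csalc* library. Under the second, *Csalc* library b reached the lowest WT libraries, so that the groups overlapped. The log2 ratio of the means, -0.90, is the same for both. Without WT library a the difference was 1.78-fold, also below the limit.

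**Figure D2:**
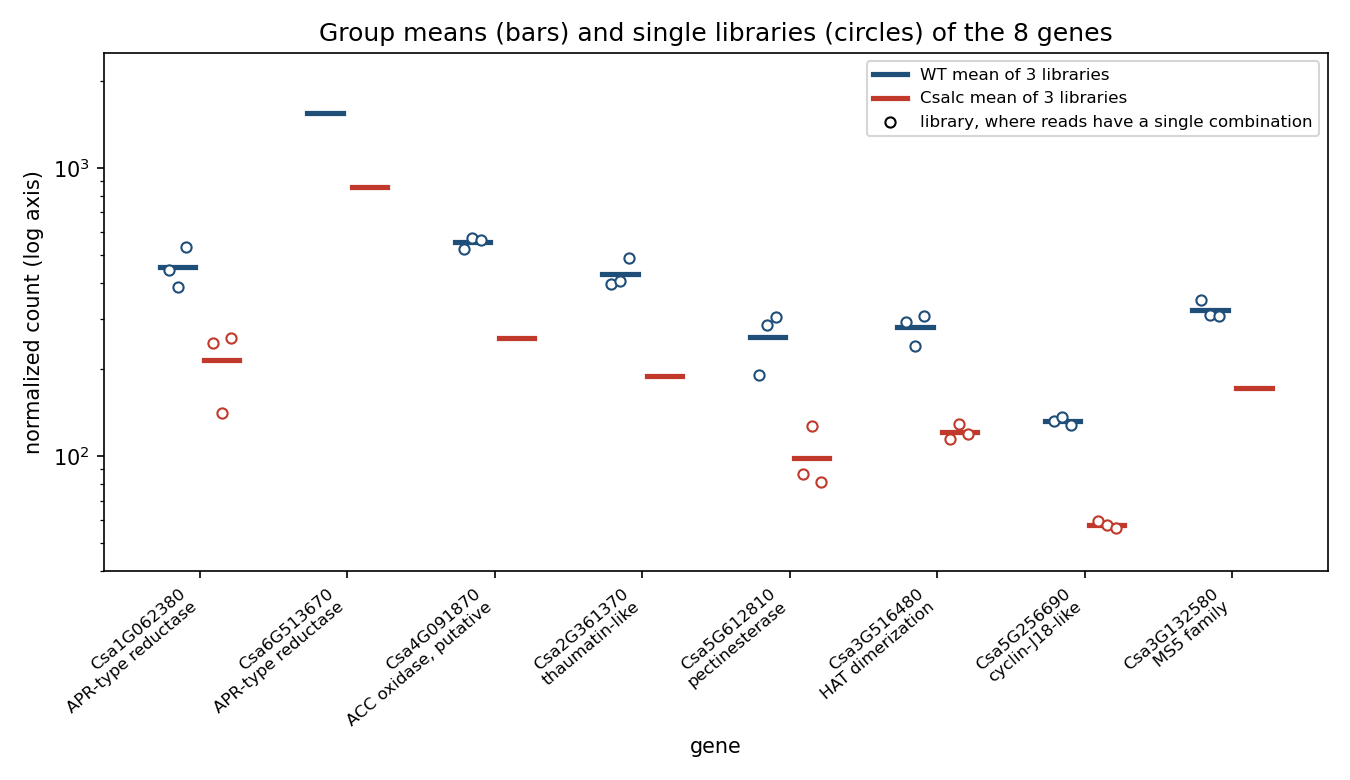
Mean normalized count (log axis) of the 8 genes in WT (blue) and Csalc (red), with circles for the 3 libraries of a group where a single combination of reads is possible. For the 4 genes with circles in both groups, the Csalc circles all lie under the WT circles; Csa5G256690 has the tightest circles, from 56.2 to 59.6 in Csalc.

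In the 4 genes with single combinations in both groups, all 3 *Csalc* libraries lay below all 3 WT libraries. This was so for 6.68% of the 1183 genes with a WT mean of 100 to 700 and single combinations in both groups. Single combinations are found mostly for lower *Csalc* means, which favours genes lower in *Csalc*. Among genes with an overall mean of 100 to 150, where 773 of 875 had single combinations, the share was 5.17%. Since the list was chosen on these libraries, nothing is read from the members' count. For Csa3G132580 and Csa6G513670, the groups overlapped under some of the possible combinations and not under others.

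The difference of the mean log2 values (*Csalc* minus WT) and its standard error over 3 libraries a group were -1.19 ± 0.0358 for Csa5G256690. They were -1.21 ± 0.119 for Csa3G516480 and -1.40 ± 0.290 for Csa5G612810. For Csa1G062380 they were -1.11 ± 0.309. The SDs of Csa5G256690, 3.15% of the mean in WT and 2.93% in *Csalc*, lay under the 8.99% and 12.7% expected from counting reads. Its standard error is therefore too small as a measure of uncertainty. The 2 largest standard errors exceed the gaps between neighbouring genes, so the order of these genes by the size of the difference cannot be given from 3 libraries.

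**Figure D3:**
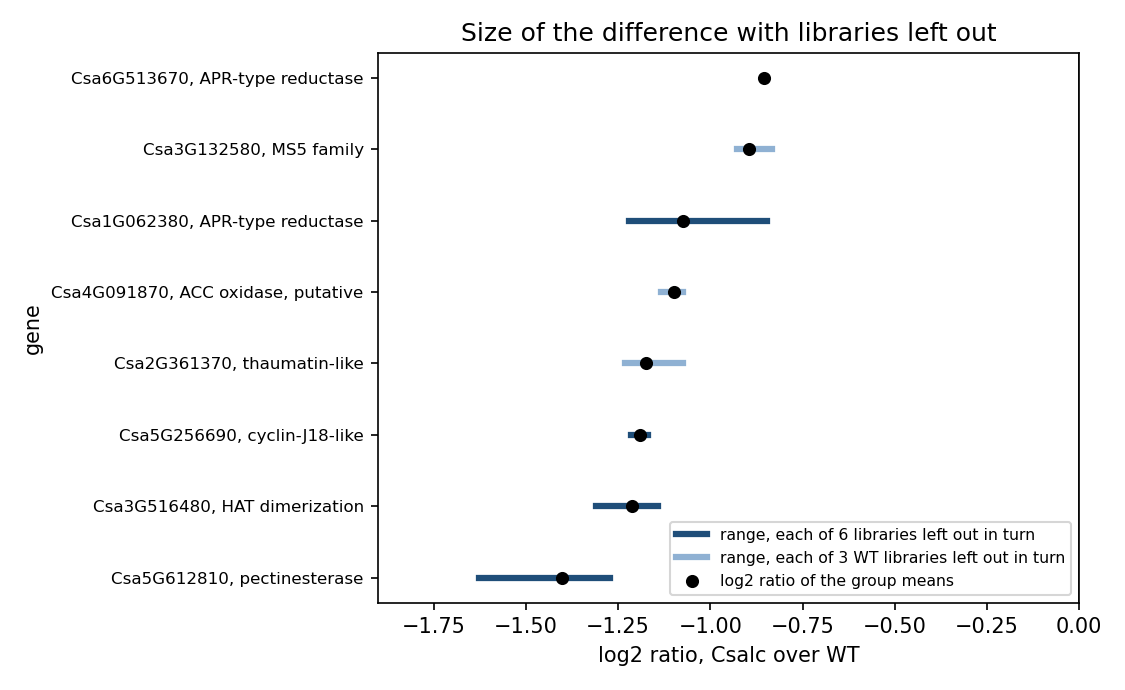
Log2 ratio of Csalc to WT (black points, group means) with the range over leaving out single libraries (dark bars, 6 libraries; light bars, the 3 WT libraries only). All ranges lie below 0, between -1.63 and -0.83; no range can be drawn for Csa6G513670.

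Within WT, the spread of the listed genes was like that of the table. The SD was 3.15 to 23.3% of the mean over the 7 genes that could be measured, with a median of 11.8%. Over all 6953 genes with a WT mean of 100 to 700 the median was 11.0%, with quartiles of 6.88% and 16.2%. The other genes in the same range of fold were more variable in WT, with a median of 24.5% over the 18 of them that could be measured. *CsRALF19* had 37.5%. In *Csalc*, the 3 listed genes with a mean of 50 to 150 had SDs of 2.93%, 6.38% and 25.2% of the mean, against a median of 35.9% over 10 other genes in the range of fold and of 17.9% over all 849 genes of that range of means with single combinations. The listed and the other genes met the same limits of fold and WT mean, but their folds within these limits were not compared. The listed genes also stand in the study's list of differentially expressed genes, where only CsaUNG012530 of the others is annotated. The paper cut that list by false discovery rate and by a fold of at least 2. By the means used here, Csa6G513670 at 1.81-fold and Csa3G132580 at 1.86-fold lie under that fold. Why they are in the list was not tested. A false discovery rate depends on the spread between libraries. These spreads therefore describe the choice and are no test of it. How much of the difference in spread comes from the cutoff on the false discovery rate was not tested.

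**Figure D4:**
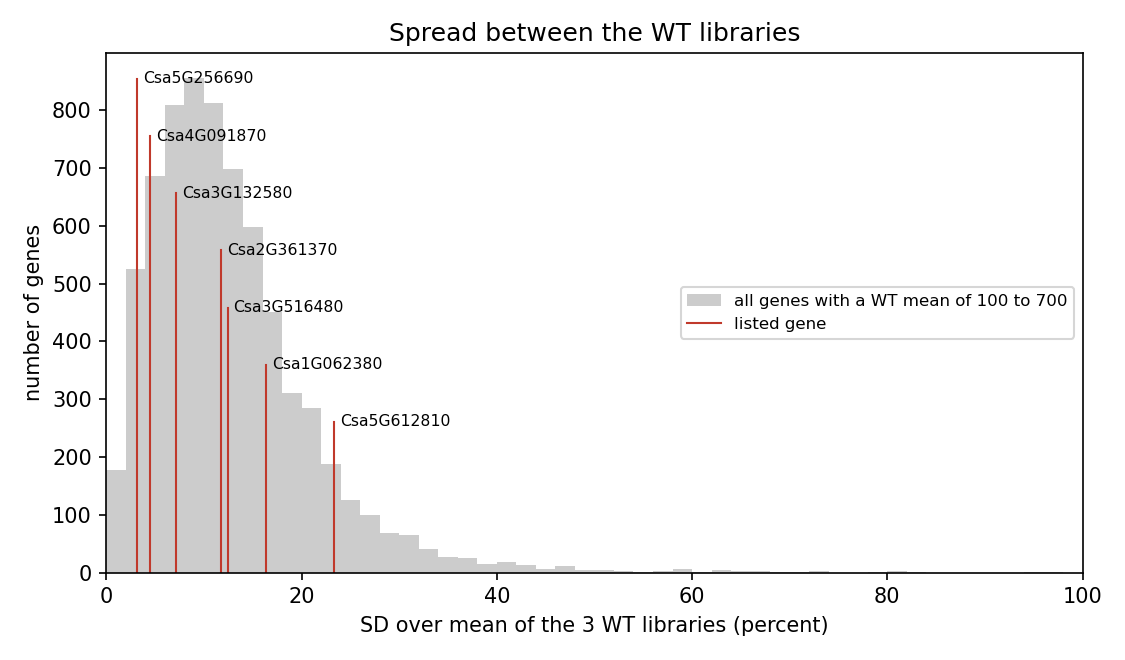
Number of genes by the SD of the 3 WT libraries in percent of their mean, for all 6953 genes with a WT mean of 100 to 700 (grey), with 7 listed genes as red lines of arbitrary height. The lines run from 3.15% for Csa5G256690 to 23.3% for Csa5G612810, on both sides of the median of 11.0%.

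No library was the extreme one throughout the list. Of the 7 genes measured in WT, 4 were highest in library c, 2 in library b and 1 in library a, and 3, 2 and 2 were lowest in libraries a, b and c. In *Csalc*, library b was the highest for 2 of 4 genes and the lowest for 1. The counts are small. Over all genes of 100 to 700 normalized counts in WT, libraries a, b and c were the highest in 44.4%, 26.0% and 29.6%. Over the 849 genes of 50 to 150 normalized counts in *Csalc* with single combinations, library b was the highest in 28.2% and the lowest in 34.6%.

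The edges of the list were not sharp. The gene with the next smaller difference than the limit of 1.8-fold had 192 normalized counts in *Csalc* and 346 in WT, 1.797-fold, beside 1.81-fold for Csa6G513670 just inside. At the other edge, Csa5G612810 was the last gene inside, and the next one had 268 and 840 normalized counts, 3.13-fold. The lowest WT mean inside the limits was 101, in a gene that was not listed, and the highest outside was 87.4. Of the 26 genes that met the limits without being listed, 1 was an unannotated transcript and 12 had single combinations in both groups. In 8 of these 12, all *Csalc* libraries lay below all WT libraries, beside 6.68% of the 1183 genes with a WT mean of 100 to 700 and single combinations. These 12 also met the limit of fold on the same libraries, so nothing is read from their count.

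CsaUNG012530, annotated as a thionin-like protein, was the only unlisted gene in the range that is annotated in the study's list. Thionins are small antimicrobial peptides of plants. Its WT libraries held 577, 763 and 611 normalized counts and its *Csalc* libraries 309, 352 and 155, a difference of 2.39-fold. Its groups were apart by 1.64-fold at the nearest libraries, but its *Csalc* values were less even than those of any listed gene with a single combination, with an SD of 38.1% of the mean.

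Genes with a similar pattern over the 6 libraries were sought by the root mean square difference of centred log2 values from the median profile of the 4 listed genes with single combinations. That profile lay between -0.63 and -0.55 in *Csalc* and between 0.52 and 0.77 in WT. It thus held mostly the contrast for which the genes were chosen, and genes of similar fold are found by construction. Over 1178 unlisted genes, the nearest was Csa3G684670, with a difference of 0.21. This gene also met the limits of fold and WT mean that describe the list. Its WT libraries held 139, 172 and 225 normalized counts, and its *Csalc* libraries 87.6, 84.8 and 98.4. The next, Csa3G020090, was 0.29 away, with 63.3, 97.0 and 69.3 in *Csalc* and 115, 130 and 137 in WT. The listed genes themselves were between 0.08 and 0.31 away from their own median profile. The table names neither gene, and the likeness is a description over 6 libraries.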

How the data were processed

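Total RNA of 3 WT and 3 *Csalc* ovary samples was made into libraries with the NEBNext Ultra RNA kit and sequenced by the authors in read pairs. Mapping was to the cucumber sequence Chinese Long V2, and 1 table was deposited. The submitters' processing notes name STAR and DESeq2, and their versions and settings are not given in the sources used here. The deposited values used are a signal, the mean normalized count of each group, in 23955 genes of which 707 are unannotated transcripts. The mutant column is headed spt2 and was taken as *Csalc* because the study prints its values under that name. The deposited p-values, adjusted p-values and log2 fold changes hold the authors' comparison and were not used.

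Log2 ratios of *Csalc* to WT were computed without a pseudocount. The step that 1 read of each library adds to a mean was taken from the lowest means and refined by least squares, and all whole-read combinations matching a mean within 1.2 times its rounding error were listed, for WT means of 100 to 700 and for the 8 genes. The largest deviation in the fits was 1.05 times that error. Only means that matched a sum of whole reads to about this error entered the fits, so it is no measure of fit. WT means had a single combination in 6953 of 6953 genes, *Csalc* means in 1183. On 1500 simulated means per group (*Csalc* 50 to 300, WT 100 to 700), 874 and 1500 had a single combination, and 100.0% of these were the true reads. No test between groups was run, because the genes were chosen by this contrast; the members and lists were chosen with earlier results of these data known. The genes given by name are the 8 members, *CsALC*, *CsSPT*, *CsRALF4*, *CsRALF19*, CsaUNG012530 and the 2 genes of nearest pattern. The RefSeq gene table (23999 entries) shared 0 identifiers with the deposited one, so neither coordinates nor gene sequences are given. The guide is from the study's primer list. Replicates may share plants or batches that the labels do not name, and counting errors cover reads only. Alternatives changed the pseudocount, the scaling, the minimum mean, the fold, the inclusion of unannotated transcripts, the library left out and the combination of reads. Calculations used Python 3.11.15 with NumPy 2.4.6, pandas 2.3.3 and numba 0.67.0.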

Additional observations from a re-analysis of the deposited data

How the results depend on the processing

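All 65 log2 ratios of the 8 genes under a pseudocount, another scaling or a library left out were lower in *Csalc*. The genes were chosen for this difference and a pseudocount cannot change its sign, so nothing is read from that count. The SD between libraries was taken from the most even combination where several were possible, so for those genes it may be too low. Of the 65 ratios, 63 moved by less than this SD. The other 2 belong to Csa5G256690, whose SD is very small: -1.07 with a pseudocount of 10 and -1.14 with equal column totals. The number of the 8 genes at 1.8-fold or more was 7 after centring on the median ratio and 6 with equal column totals, and lay between 7 and 8 with 1 library left out in turn. Only 4 genes could be refitted without a *Csalc* library and 7 without a WT library, and the others, Csa6G513670 among them, were counted at their full means, so this range does not test them. The background share of 0.287% became 1.17% with a WT mean of at least 10, 3.05% with no minimum mean, 0.820% at 1.5-fold and 0.173% at 2-fold. It stayed between 0.240% and 0.287% under the other alternatives of scaling, pseudocount, overall mean and unannotated transcripts. The median SD in percent of the mean was 15.8% in *Csalc* and 11.8% in WT over single combinations, 18.02% and 9.48% with the most even ones, and 28.03% and 12.1% with the least even ones. A wider match of 2 times the rounding error, added after the data were seen, left 3 genes with single combinations in both groups, since it allowed 265, 305 and 76.8 normalized counts for Csa1G062380 in *Csalc*. Single libraries could not be given where several combinations of reads were possible, as for Csa6G513670 in both groups and for 3 other listed genes in *Csalc*. No paired analysis was possible because the deposited columns are group means and the recovered libraries carry no replicate number.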
